A study of Rattus norvegicus with 9 samples.

Results

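The interferon response and antigen presentation genes were followed here as a module of 42 genes in rat cardiosphere-derived cells (CDCs). The members were the rows of the expression table whose gene symbol equalled a listed name, and all 42 were found among the 19919 genes of the table. They comprised 4 interferon receptor chains, 8 STAT and IRF transcription factors, 3 genes of RNA sensing, 11 antiviral effectors, 9 genes of the ISG15 system and other interferon-stimulated genes, and 7 genes of antigen presentation. The CDCs were wild-type primary cultures grown from the left ventricular septum of 4-week-old Sprague Dawley rats, and the labels name no treatment beside the substrate. The study's methods give these rats as male, whereas its reporting summary names both male and female rats of that age. Cells were cultured on octyl hydroxypropyl cellulose ester (OPC), a cholesteric liquid crystal, on an ultra-low attachment (ULA) surface, or on polystyrene (PS), the reference surface. Per the study, cardiospheres (CSps) formed on all of these substrates: from suspended cells on ULA, from cells that first attached on OPC, and from adherent cells on PS, where supporting cells stayed at the base of the CSps. The study reports the highest density of CSps on OPC and the lowest on PS. The share of cells in CSps is not given for the libraries. RNA-Seq was done after 3 days of culture per the study, on 3 biological replicates per group, 9 libraries in all. The sources do not say whether the replicates came from separate animals, and the spread behind each p-value is that between cultures, which may be technical. RNA came from whole cultures, in which fewer cells of a type and less RNA per cell cannot be told apart.

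Interferons bind receptor pairs at the cell surface, and the receptor-bound JAK kinases then phosphorylate STAT proteins. For type I interferon, STAT proteins join with Irf9 and bind the interferon-stimulated response element in front of antiviral genes. For interferon gamma, a STAT dimer binds the gamma-activated site, and genes of peptide loading and MHC molecules are among its targets. MHC class I carries peptides from the cytosol on a heavy chain paired with beta-2 microglobulin, whereas class II is made mainly by professional antigen-presenting cells and depends on the coactivator Ciita.

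The values were FPKM, fragments scaled by transcript length and library size, so levels are given per length. The libraries summed to 444736 to 460732 FPKM, and the depth relative to the first PS library was 0.873 to 1.18. Pearson's r of log2(FPKM + 1) was 0.987 to 0.991 between libraries of the same group and 0.873 to 0.957 between libraries of different groups. Of 11 markers of cardiosphere and mesenchymal cells, all 11 reached 1 FPKM in at least 1 library. All 6 matched markers of leukocytes stayed under 1 FPKM in every library, at no more than 0.224, among them Ptprc and Cd3e. Of the 8 matched macrophage and monocyte markers, Adgre1, Csf1r, Aif1 and Mrc1 stayed under 1 FPKM. The summed macrophage list was 44.8 to 51.3 FPKM in the OPC group, 75.6 to 79.6 in the ULA group and 20.9 to 23.1 in the PS group, and Cd68 and Cd14 made up much of it. Cd68 was 26.0, 24.1 and 21.6 FPKM on OPC, 39.5, 39.9 and 39.9 on ULA, and 2.91, 2.76 and 3.43 on PS. The summed smooth muscle list, with Acta2 and Tagln, was 139.5 to 244.1 FPKM in the OPC group, 74.8 to 79.8 in the ULA group and 4336 to 4415 in the PS group. The cardiosphere and mesenchymal list summed to 5554 to 5735 on OPC, 5696 to 6234 on ULA and 8954 to 9391 on PS. The part of these markers in the results below, and in every difference from PS, was not tested. No marker of these lists was at 0 in every library.

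The promoters were searched for the sequence that the type I complex is known to bind. RefSeq promoters of the GRCr8 assembly, 300 bases running from 250 before to 50 after the transcription start, matched 33 of the 42 members. No promoter was matched for Irf2, Ddx58, Mx2, Ifit1, Ifit2, Isg15, Usp18, Nlrc5 and Ciita. The core of the interferon-stimulated response element was searched on both strands as GAAANNGAAA, and a stretch with overlapping matches was counted once per promoter. It was found in 16 of 33 members (48.5%), against 3.92% of 33469 promoters of this length and 3.07% of the 10300 promoters of genes tested. The gamma-activated site TTCNNNGAA, which reads the same on both strands, was in 8 of 33 members (24.2%), against 8.87% of all promoters and 6.73% of those of genes tested. The members were listed as genes of the interferon response, so a higher share than in all promoters is in part built into the list. Oasl, with the largest ULA vs PS log2FC of the members tested (2.55), had no core in its window, and neither had Mx1. The following stretches come from members with the core, and are printed because their genes carry large differences or a clear group order below. They read 5′ to 3′ on the strand of the gene, and capitals mark the core, which appears as its reverse complement in Irf7, Gbp2, Rsad2 and Ifit3.
Irf7 promoter, chr1:205800063-205800112, minus strand: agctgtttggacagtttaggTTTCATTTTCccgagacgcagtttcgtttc
Oas1a promoter, chr12:41330405-41330460, plus strand: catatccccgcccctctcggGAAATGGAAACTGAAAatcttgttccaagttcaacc
Gbp2 promoter, chr2:234005676-234005725, plus strand: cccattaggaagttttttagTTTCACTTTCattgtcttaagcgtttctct
Rsad2 promoter, chr6:48788238-48788287, minus strand: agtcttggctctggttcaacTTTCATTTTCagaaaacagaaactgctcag
Ifit3 promoter, chr1:241527262-241527311, plus strand: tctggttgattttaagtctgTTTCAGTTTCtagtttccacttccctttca
Bst2 promoter, chr16:18255063-18255118, minus strand: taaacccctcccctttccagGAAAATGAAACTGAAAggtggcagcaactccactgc
B2m promoter, chr3:129549160-129549209, plus strand: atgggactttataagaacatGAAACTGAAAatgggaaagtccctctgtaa
Tapbp promoter, chr20:4967868-4967923, minus strand: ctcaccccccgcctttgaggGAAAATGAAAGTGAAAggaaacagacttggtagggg
In Oas1a, Bst2 and Tapbp a pair of cores overlapped. The core began 69 bases before the start in Irf7, 31 in Gbp2, 44 in Ifit3, 147 in Rsad2 and 150 in B2m. A match is a description of these letters and was not tested as a binding site.

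**Figure D1:**
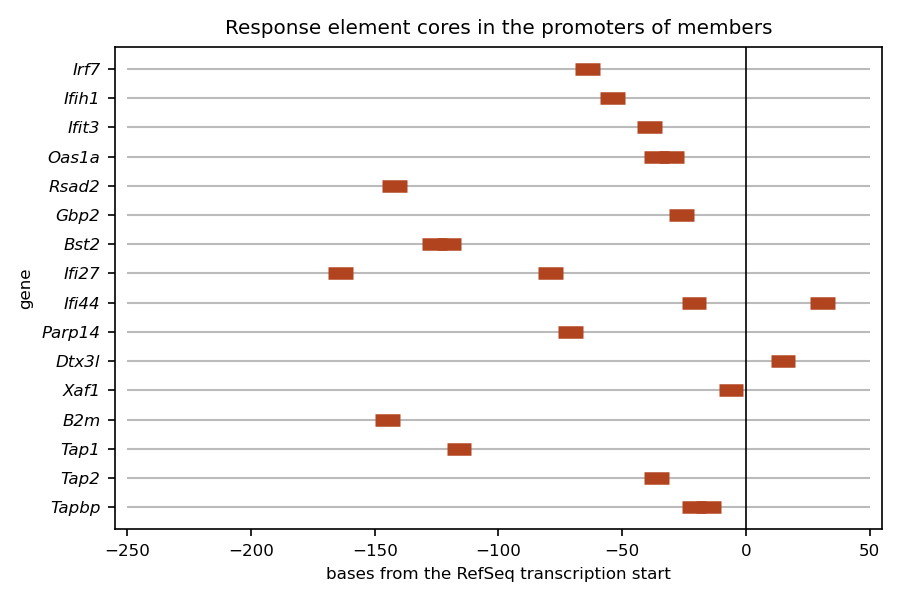
Position of each response element core (bars, 10 bases wide) in the promoters of the 16 members that had one, in bases from the RefSeq transcription start. Most bars lie before the start, and those of Dtx3l and the second of Ifi44 lie after it.

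Of the 42 members, 38 reached 1 FPKM in at least 3 of the 9 libraries and were tested among 12513 genes. Ifit1, Nlrc5, Ciita and Cd74 did not. The member just inside this filter was Oas1a, which reached 1 FPKM only in the OPC group, and the one just outside was Nlrc5. Of the 38, 8 had every PS value under 1 FPKM (Mx1, Mx2, Ifit3, Oas1a, Oasl, Rsad2, Usp18 and Tap2) and passed the filter through the other groups, so their difference from PS is in part built into the filter, as is that of Oas1a from ULA. Results of these 8 members are therefore given from a fit with no filter on all 19919 genes. Counts and figures over the 38 members kept the filter. So did results with a library left out, another pseudocount, another scaling or a replicate block.

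Members were mostly higher on OPC and on ULA than on PS, and higher on OPC than on ULA in a smaller number. Over all 42 members in the fit with no filter, 17 were higher and 2 lower in OPC vs ULA, where 19.8% of all genes were higher and 14.7% lower (limma, Benjamini-Hochberg). In ULA vs PS, 30 of 42 were higher and 2 lower (27.2% and 20.4% of all genes), and in OPC vs PS 34 were higher and 2 lower (26.6% and 16.2%). The median log2FC of the 42 was 0.22 in OPC vs ULA, 0.52 in ULA vs PS and 0.76 in OPC vs PS, where that of all genes was 0.0049, 0.02 and 0.03. With the filter, in OPC vs ULA, 17 of 38 members were higher and 2 lower past an adjusted p of 0.05 (limma, Benjamini-Hochberg over all genes tested), where 32.2% of all genes tested were higher, 21.7% lower and 54.0% changed in either direction. In ULA vs PS, 30 members were higher and 2 lower, against backgrounds of 38.4% and 30.5%. In OPC vs PS, 33 were higher and 2 lower, against 40.4% and 23.9%. In either direction, 68.9% of all genes tested were called in ULA vs PS and 64.4% in OPC vs PS, where 32 and 35 of the 38 members were. The median log2FC of the 38 was 0.23 in OPC vs ULA, 0.54 in ULA vs PS and 0.85 in OPC vs PS, where that of all genes tested was 0.06, 0.06 and 0.11. With an absolute log2FC of at least 1 added, 1 member, higher, passed in OPC vs ULA, where 4.33% of all genes tested did, 1.81% higher and 2.52% lower. In ULA vs PS 8 members passed higher and 1 lower (background 8.42% and 7.39%, together 15.8%), and in OPC vs PS 13 higher and 1 lower (6.60% and 6.11%, together 12.7%). Those higher include Mx1, Ifit3, Oasl, Rsad2 and Usp18, and in OPC vs PS also Mx2 and Oas1a. The difference of these genes from PS is in part built into the filter. With no filter the same numbers of the 42 passed, and the share of all genes was not computed there. Groups that did not overlap were seen in 18 members higher and 5 lower in OPC vs ULA (36.1% and 24.7% of all genes tested), 32 and 2 in ULA vs PS (40.4% and 32.0%) and 33 and 2 in OPC vs PS (44.0% and 26.4%). These counts also kept the filter, with the same limit. All log2FC are on the log2(FPKM + 1) scale, on which changes of low genes come out too small. Both comparisons with PS use the same PS libraries.

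Scaling each library to its upper quartile moved the median of all genes in OPC vs PS to 0.01, and higher genes then made up 49.7% of those called, against 62.8% without it. In OPC vs ULA the share was 50.4%, against 59.8%. Of the 38 members, 33 were higher and 2 lower in OPC vs PS after that scaling. In OPC vs ULA, 15 members were higher and 5 lower. Of the 12513 genes tested, 3868 were higher and 3915 lower in OPC vs PS after the same scaling. In OPC vs ULA, 3331 genes were higher and 3276 lower. By group means, 26 of the 38 members stood in the order PS, ULA, OPC from low to high, as did 22.4% of all genes tested, and in 14 of them no library of a group overlapped another group (8.81% of all genes tested). In 9 the order was PS, OPC, ULA (25.0% of all genes tested), with 4 fully apart (10.8%). Ifngr1, Ifit2 and Samhd1 had the order ULA, OPC, PS (20.9%), and of these Ifngr1 had all groups apart (9.57%). These orders kept the filter. For the 8 members with every PS value under 1 FPKM, the low place of PS is in part built into it. Mx2 and Oas1a of these are among the 14 fully apart, and Ifit3 and Oasl are among the 4.

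**Figure D2:**
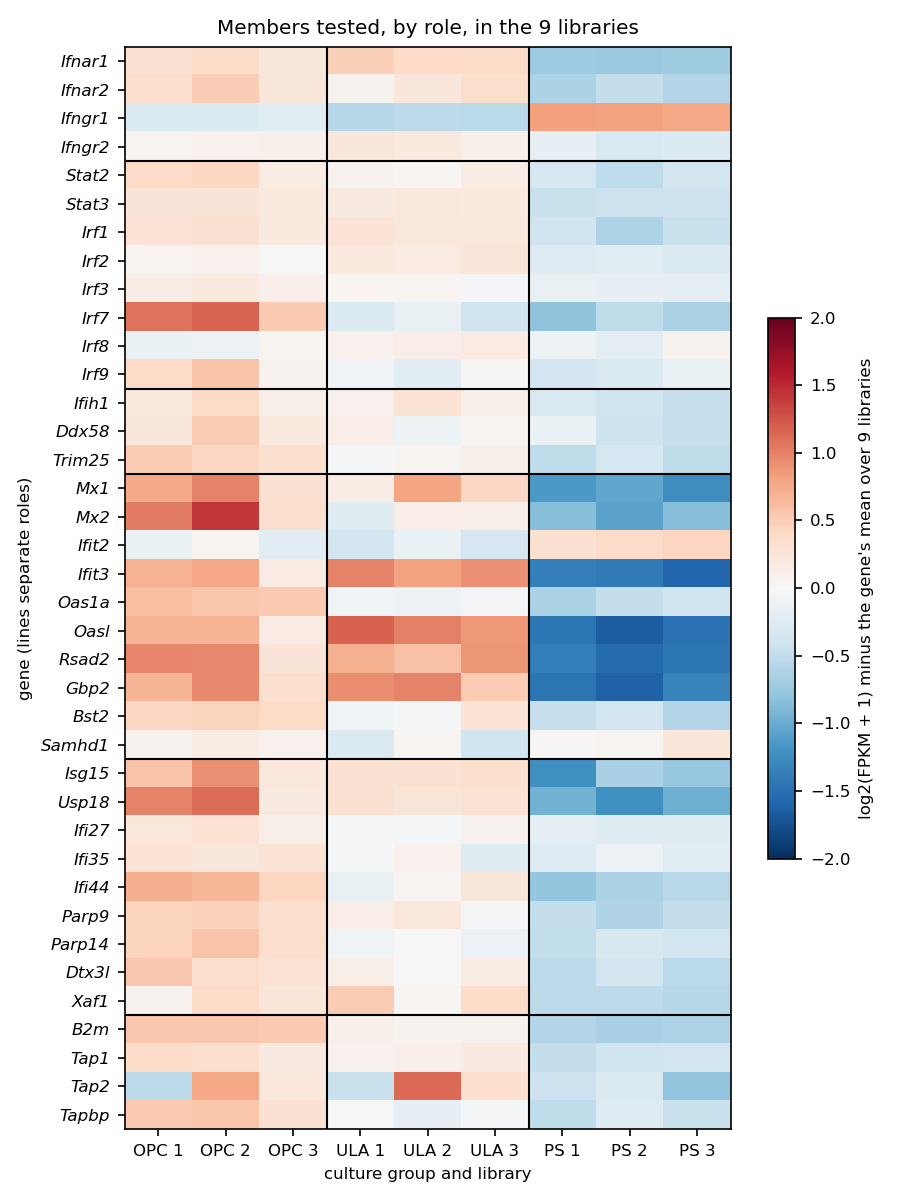
Level of the 38 members tested in each library, as log2(FPKM + 1) minus the mean of the gene over the 9 libraries, with members in rows by role and libraries in columns. PS libraries are mostly blue, and in Ifngr1 and Ifit2 all 3 of them are red.

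The receptor chains did not move together. Ifnar1, a chain of the type I interferon receptor, was 47.5, 49.8 and 44.9 FPKM on OPC, 53.7, 50.7 and 49.9 on ULA and 22.6, 22.5 and 23.1 on PS. Every OPC and ULA library was above every PS library, with a log2FC of 1.03 ± 0.04 (SE, adjusted p = 4.89e-08, limma) in OPC vs PS and 1.14 ± 0.04 in ULA vs PS (adjusted p = 1.67e-08, limma). OPC vs ULA was not called, at -0.12 (adjusted p = 0.0549, limma), and was lower without OPC library 2 (-0.15, adjusted p = 0.0265, limma). Ifnar2, the other chain of that receptor, averaged 24.9 ± 2.38 FPKM on OPC, 22.6 ± 2.28 on ULA and 12.7 ± 0.80 on PS (SD, n = 3 each) and was higher on both OPC and ULA than on PS.

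Ifngr1, the ligand-binding chain of the interferon gamma receptor, went the other way. It was 48.2, 48.0 and 50.2 FPKM on OPC, 39.1, 40.5 and 39.9 on ULA and 104.2, 103.0 and 100.6 on PS. The groups did not overlap, and Ifngr1 fell in ULA vs PS with a log2FC of -1.34 ± 0.03 (SE, adjusted p = 7.76e-10, limma) and in OPC vs PS with -1.06 ± 0.03 (adjusted p = 4.66e-09, limma). In OPC vs ULA it was higher by 0.29 (adjusted p = 6.22e-05, limma). Its partner Ifngr2, which carries the signal into the cell, averaged 15.6 FPKM on OPC, 16.7 on ULA and 12.2 on PS and was higher on both OPC and ULA than on PS.

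Of the 8 STAT and IRF factors, 4 were higher and 1 lower in OPC vs ULA, 5 were higher and none lower in ULA vs PS, and 7 were higher and none lower in OPC vs PS. The shares of all genes tested that were higher and lower were 32.2% and 21.7% in OPC vs ULA, 38.4% and 30.5% in ULA vs PS and 40.4% and 23.9% in OPC vs PS. Irf7, the factor that amplifies type I interferon production, had the largest OPC vs ULA log2FC of the 38 members. It was 13.7, 14.5 and 8.99 FPKM on OPC, 4.77, 5.25 and 4.31 on ULA and 3.01, 3.88 and 3.5 on PS. Every OPC library was above every ULA library, with a log2FC of 1.19 ± 0.16 (SE, adjusted p = 1.89e-04, limma) in OPC vs ULA and 1.57 in OPC vs PS (adjusted p = 1.74e-05, limma). ULA vs PS was not called, at 0.37 (adjusted p = 0.0596, limma). In the rn6 build used for the values, Irf7 lies on the minus strand at chr1:214248837-214252456 and overlaps Phrf1 on the plus strand, whose reads cannot be told apart from its own where the counting ignored strand.

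Irf9, the DNA-binding partner of the STAT proteins in the type I complex, was 16.6, 19.0 and 13.2 FPKM on OPC, 12.0, 10.7 and 12.7 on ULA and 9.35, 10.2 and 11.3 on PS. It was higher in OPC vs ULA by 0.42 (adjusted p = 0.0154, limma), and the call was lost without OPC library 2 or ULA library 2, at adjusted p of 0.0516 and 0.0549. Stat2, the other subunit of that complex given here, was 17.2, 17.5 and 14.5 FPKM on OPC, 13.5, 13.3 and 14.5 on ULA and 9.98, 8.73 and 9.80 on PS. OPC library 3 lay within the ULA range, and the OPC vs ULA call (0.23, adjusted p = 0.0324, limma) was lost under upper-quartile scaling, at adjusted p = 0.1, and without any 1 of OPC libraries 1 and 2 and ULA libraries 1 and 2, at adjusted p of 0.0817 to 0.111 (log2FC 0.18 to 0.22). In OPC vs PS Stat2 was higher by 0.72 (adjusted p = 2.8e-05, limma).

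Stat3, which answers mainly to cytokines of the interleukin-6 family, was 85.8, 86.3 and 82.2 FPKM on OPC, 81.7, 83.5 and 82.7 on ULA and 52.3, 52.9 and 53.9 on PS. The OPC and ULA groups overlapped and both stood above PS. Irf1, an early interferon gamma target, had the same order, with 9.89, 10.02 and 9.23 FPKM on OPC, 9.81, 9.32 and 9.39 on ULA and 5.76, 4.85 and 5.55 on PS. Irf3, the constitutive factor downstream of nucleic acid sensors, was 57.5, 59.5 and 55.5 FPKM on OPC, 52.9, 53.2 and 49.9 on ULA and 46.3, 46.0 and 45.2 on PS, and its OPC vs ULA call (0.14, adjusted p = 0.011, limma) was lost under upper-quartile scaling (adjusted p = 0.121, limma). Irf3 overlaps Bcl2l12 on the other strand. Irf2, an antagonist of Irf1, was lower in OPC vs ULA by a log2FC of -0.15 (adjusted p = 0.0253, limma) and higher in both comparisons with PS. That call was lost without OPC library 1, OPC library 3 or ULA library 3 (adjusted p of 0.0588, 0.0743 and 0.0851, limma) and in a fit of those groups alone (adjusted p = 0.0516). Irf8, a factor of myeloid and lymphoid cells, was 2.11, 2.16 and 2.56 FPKM on OPC, 2.63, 2.75 and 2.85 on ULA and 2.20, 2.01 and 2.61 on PS, and was called in no comparison; without PS library 3 it was higher in ULA vs PS (0.27, adjusted p = 0.0402, limma).

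The 3 genes of RNA sensing were higher on both OPC and ULA than on PS. Ifih1, the sensor of long double-stranded RNA, averaged 4.29 ± 0.49 FPKM on OPC, 4.01 ± 0.37 on ULA and 2.43 ± 0.19 on PS (SD, n = 3 each). Ddx58, which encodes the sensor RIG-I, averaged 7.6 on OPC, 6.07 on ULA and 4.51 on PS, and its ULA vs PS call (0.36, adjusted p = 0.0182, limma) was lost without ULA library 1, PS library 2 or PS library 3 (adjusted p of 0.0645, 0.0588 and 0.0655). Trim25, the ubiquitin ligase that acts on RIG-I, was the member of this group called in OPC vs ULA, at 16.2 ± 1.03 FPKM on OPC and 12.3 ± 0.73 on ULA (log2FC 0.38, adjusted p = 0.0013, limma).

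**Figure D3:**
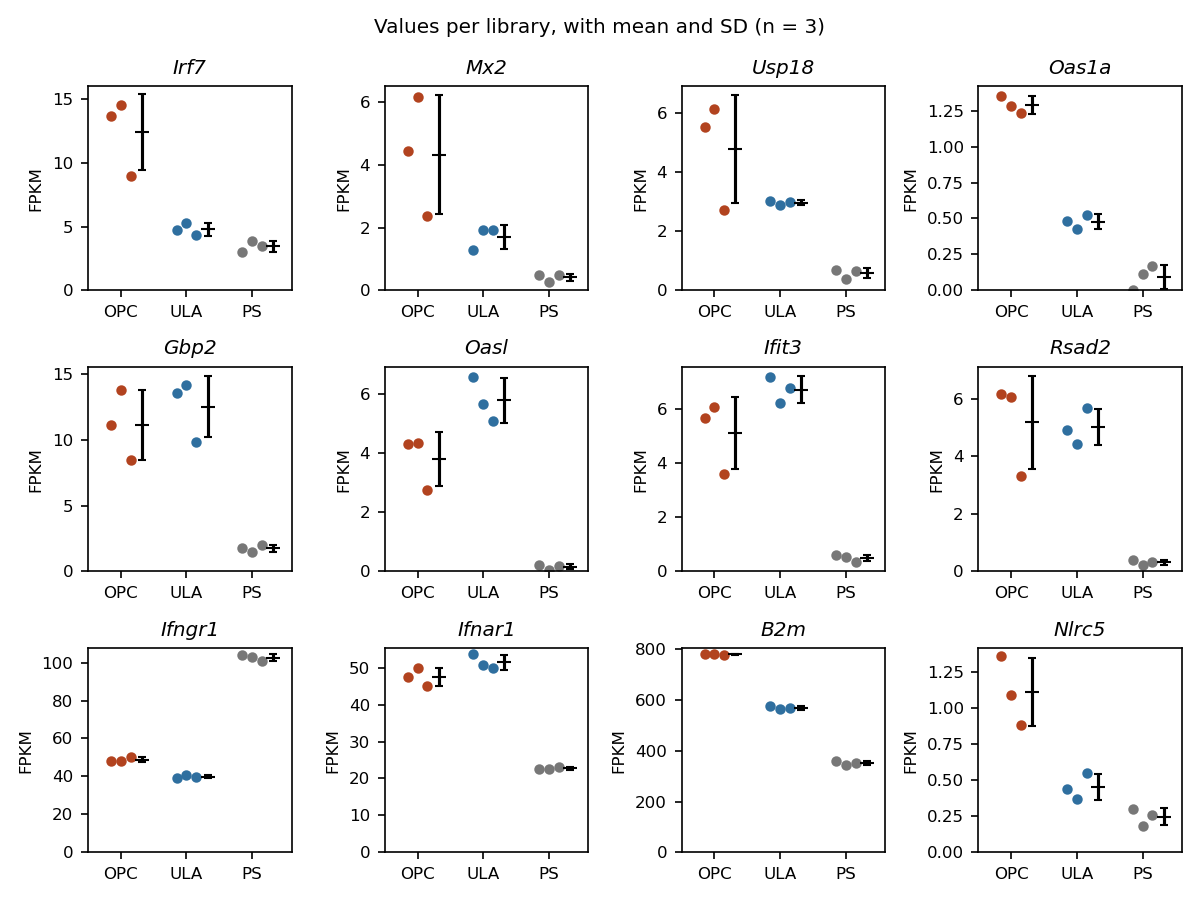
FPKM of 12 members in each library (points), with the mean and SD of each group (n = 3) to the right of its points. Irf7 and Oas1a stand apart on OPC, Gbp2, Oasl, Ifit3 and Rsad2 are near the axis on PS and high on both OPC and ULA, and Ifngr1 is highest on PS.

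Of all 11 antiviral effectors in the fit with no filter, 8 were higher and 1 lower in ULA vs PS and in OPC vs PS, where 27.2% and 26.6% of all genes were higher, and 3 were higher and 1 lower in OPC vs ULA, where 19.8% were higher. Oasl, a 2'-5'-oligoadenylate synthetase-like protein, was 4.32, 4.35 and 2.76 FPKM on OPC, 6.60, 5.68 and 5.10 on ULA and 0.22, 0.06 and 0.20 on PS. Every OPC and ULA library was above every PS library, and the ULA vs PS log2FC was 2.55 ± 0.16 (SE, adjusted p = 2.66e-06, limma, no filter). It was lower in OPC vs ULA by a log2FC of -0.51 (adjusted p = 0.0367, limma, no filter), a call that was lost with a pseudocount of 0.1 (adjusted p = 0.0989, limma) and without ULA library 1 (adjusted p = 0.0649, limma).

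Ifit3, which binds other Ifit proteins on foreign RNA, was 5.69, 6.07 and 3.61 FPKM on OPC, 7.2, 6.22 and 6.78 on ULA and 0.60, 0.54 and 0.36 on PS. Rsad2, the antiviral enzyme viperin, was 6.14, 6.04 and 3.32 FPKM on OPC, 4.91, 4.43 and 5.66 on ULA and 0.39, 0.24 and 0.31 on PS. Gbp2, an interferon-induced GTPase, was 11.1, 13.8 and 8.46 FPKM on OPC, 13.5, 14.2 and 9.85 on ULA and 1.76, 1.47 and 2.02 on PS. For all of Ifit3, Rsad2 and Gbp2 every OPC and ULA library was above every PS library. The ULA vs PS log2FC was 2.37, 2.19 and 2.29 in the order Ifit3, Rsad2, Gbp2, and in OPC vs ULA none of them was called. Without OPC library 2, Ifit3 was lower in OPC vs ULA (-0.48, adjusted p = 0.0367, limma).

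The Mx GTPases, which block viral replication, are neighbours on chromosome 11. Mx1 was 3.16, 3.88 and 2.04 FPKM on OPC, 1.71, 3.24 and 2.26 on ULA and 0.10, 0.19 and 0.04 on PS. Mx2 was 4.44, 6.14 and 2.36 FPKM on OPC, 1.27, 1.93 and 1.91 on ULA and 0.49, 0.28 and 0.49 on PS. Mx1 overlapped between OPC and ULA, whereas every OPC value of Mx2 was above every ULA value (log2FC 0.92 ± 0.25, SE, adjusted p = 0.0239, limma, no filter). Oas1a, a 2'-5'-oligoadenylate synthetase, was 1.35, 1.28 and 1.23 FPKM on OPC, 0.48, 0.42 and 0.53 on ULA and 0, 0.11 and 0.17 on PS. Its groups did not overlap, and in the fit with no filter it was higher in OPC vs ULA by 0.63 (adjusted p = 2.04e-04, limma), with 1 FPKM exceeded on OPC alone. Mx, Oas, Ifit and Gbp genes have close paralogs with which they may share reads.

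Ifit2 was the effector that fell, at 18.7 ± 1.85 FPKM on OPC, 16.4 ± 1.62 on ULA and 26.1 ± 1.12 on PS (SD, n = 3 each), with a log2FC of -0.64 in ULA vs PS (adjusted p = 7.23e-05, limma) and -0.46 in OPC vs PS (adjusted p = 8.05e-04, limma). In OPC vs ULA Ifit2 was not called, but was higher without OPC library 3 or ULA library 2 (adjusted p of 0.046 and 0.0214, limma). Ifit2 and Ifit3 lie next to each other on chromosome 1 and differed in direction against PS. Ifit1 was listed at no more than 0.13 FPKM in any library. Bst2, the tether of budding virus, averaged 4.78 on OPC, 3.51 on ULA and 2.09 on PS and was called in all comparisons. Samhd1, a nucleotide hydrolase, averaged 1.16 FPKM on OPC, 0.755 on ULA and 1.17 on PS and was called in none. Without ULA library 2, Samhd1 was higher in OPC vs ULA (0.45, adjusted p = 0.0164, limma) and lower in ULA vs PS (-0.45, adjusted p = 0.0106, limma).

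The ISG15 system and the other interferon-stimulated genes rose in OPC vs PS in 9 of 9 members, in ULA vs PS in 8 and in OPC vs ULA in 6, also with no filter, where 26.6%, 27.2% and 19.8% of all genes were higher in these comparisons. Isg15, the ubiquitin-like protein, was 7.35, 9.50 and 5.46 FPKM on OPC, 5.95, 5.91 and 6.0 on ULA and 1.40, 2.56 and 2.32 on PS. Usp18, which removes it from proteins and dampens the receptor, was 5.52, 6.11 and 2.71 FPKM on OPC, 3.04, 2.87 and 2.98 on ULA and 0.70, 0.40 and 0.66 on PS. In both, OPC libraries 1 and 2 lay above all other libraries and OPC library 3 lay below the ULA libraries. Usp18 was not called in OPC vs ULA (0.49, adjusted p = 0.143, limma, no filter) and was called, with the filter, without OPC library 3 (0.78, adjusted p = 5.82e-04, against 0.0825 with it, limma).

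Ifi27 was among the 5 most abundant members, at 112.0, 118.4 and 105.2 FPKM on OPC, 94.1, 95.3 and 101.0 on ULA and 85.1, 81.8 and 81.8 on PS. Ifi44 was 8.71, 8.31 and 6.90 FPKM on OPC, 4.31, 5.11 and 5.82 on ULA and 2.44, 2.77 and 2.97 on PS. Both had all groups apart, and Ifi44 was higher in OPC vs ULA by 0.56 (adjusted p = 0.00235, limma). Parp9 and Dtx3l, which form an ADP-ribosyltransferase and ubiquitin ligase pair, and Parp14 lie on chromosome 11, and all of them were higher in OPC vs ULA, by 0.30, 0.31 and 0.52 in that order, and higher in both comparisons with PS. The OPC vs ULA call of Dtx3l was lost without OPC library 1 or ULA library 2 (adjusted p of 0.0787 and 0.067, limma). Ifi35 was higher in OPC vs ULA and in OPC vs PS, and without ULA library 3 also in ULA vs PS (0.23, adjusted p = 0.0138, limma). Xaf1, an apoptosis-related protein, was higher in both comparisons with PS and averaged 6.2 FPKM on OPC and 6.62 on ULA.

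**Figure D4:**
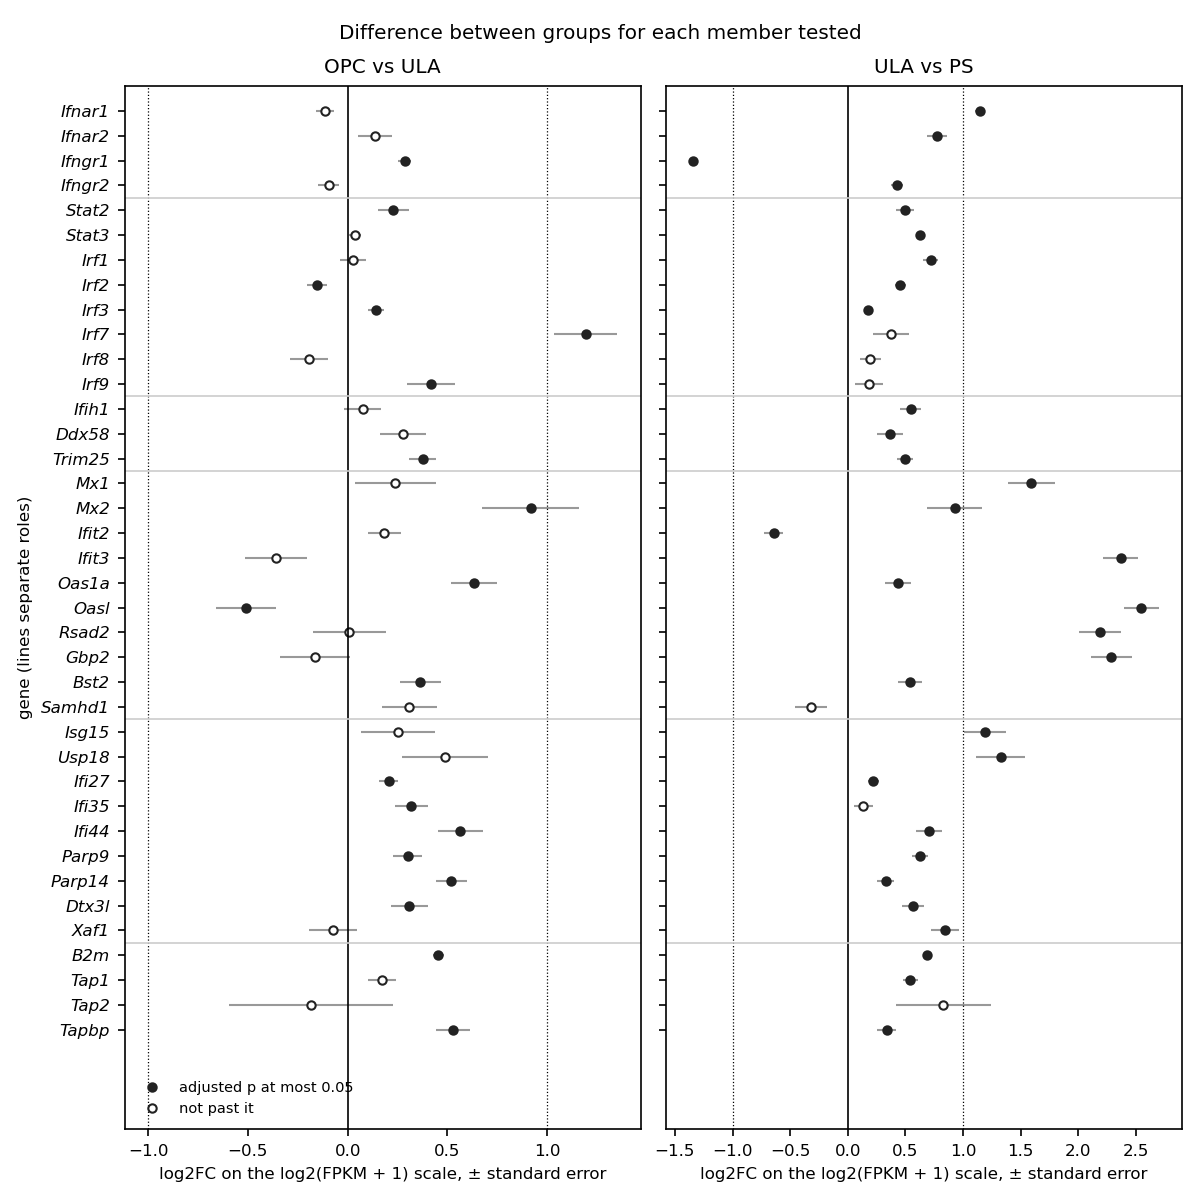
Difference in log2(FPKM + 1) with its standard error for the 38 members tested, OPC vs ULA on the left and ULA vs PS on the right. Filled points have an adjusted p of at most 0.05 and dotted lines mark a log2FC of 1 and -1. Irf7 is the point past the dotted line in OPC vs ULA.

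Of the antigen presentation members, B2m, the light chain of class I, was the most abundant member. It was 782, 779 and 776 FPKM on OPC, 576, 563 and 567 on ULA and 359, 344 and 352 on PS. The groups were far apart, with a log2FC of 0.45 ± 0.03 (SE, adjusted p = 1.58e-06, limma) in OPC vs ULA, 0.69 in ULA vs PS and 1.15 in OPC vs PS (adjusted p = 1.41e-09, limma). Tapbp, or tapasin, which holds the peptide transporter to class I, averaged 19.7 ± 1.88 FPKM on OPC, 13.3 ± 0.82 on ULA and 10.4 ± 1.03 on PS (SD, n = 3 each) and was called in all comparisons. It overlaps another gene on the opposite strand. Tap1, a subunit of that transporter, averaged 6.85 on OPC, 5.95 on ULA and 3.77 on PS and was not called in OPC vs ULA, although it was without OPC library 3 (0.23, adjusted p = 0.018, limma).

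Tap2, the partner subunit, is singled out after its values were seen. It was 0.60, 2.91 and 1.65 FPKM on OPC, 0.68, 4.01 and 1.89 on ULA and 0.73, 0.89 and 0.33 on PS, and was called in no comparison. Its spread within the OPC and ULA groups was wider than any difference between group means, and without ULA library 1 it was higher in ULA vs PS (1.22, adjusted p = 0.0199, limma). Nlrc5, the coactivator of class I genes, was under the filter, at 1.36, 1.09 and 0.88 FPKM on OPC, 0.44, 0.37 and 0.55 on ULA and 0.30, 0.18 and 0.26 on PS. Its groups did not overlap, and in a fit with no filter it was higher in OPC vs ULA by 0.54 (adjusted p = 0.00228, limma). Ciita, the coactivator of class II, was at no more than 0.10 FPKM in any library, and Cd74, the class II invariant chain, was 0.55, 0.21 and 0.34 on OPC, 0.13, 0.11 and 0.50 on ULA and 0.05, 0.25 and 0.19 on PS. Of the class II chains, RT1-Ba, RT1-Da and RT1-Db1 were at no more than 0.113 FPKM, and RT1-Bb is not analysed here.

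The class I heavy chains, which are not members, differed from B2m in direction between OPC and ULA. Of 15 RT1 class I genes tested, none was higher and 9 were lower in OPC vs ULA, with a median log2FC of -0.60, and 11 were higher and 1 lower in ULA vs PS, with a median of 1.07. In OPC vs PS 9 were higher and 1 lower, with a median of 0.47. The shares of all genes tested that were higher and lower were 32.2% and 21.7% in OPC vs ULA, 38.4% and 30.5% in ULA vs PS and 40.4% and 23.9% in OPC vs PS. Their summed level was 124, 125 and 113 FPKM on OPC, 197, 193 and 210 on ULA and 75.4, 74.0 and 73.7 on PS. The sum was thus highest on ULA, whereas B2m was highest on OPC. Upper-quartile scaling gave the same counts, with medians of -0.67 in OPC vs ULA, 1.02 in ULA vs PS and 0.35 in OPC vs PS. RT1-CE7 was 4.2, 3.42 and 3.97 FPKM on OPC and 13.1, 15.8 and 15.8 on ULA (log2FC -1.71, adjusted p = 1.38e-06, limma). RT1-T24-4 and RT1-CE10 were also lower in OPC vs ULA by more than the fold threshold, at -1.26 and -1.05. Over the whole class I list, the largest in ULA vs PS were RT1-CE7, RT1-T24-4 and RT1-S3, at 2.09, 2.05 and 1.81, and in OPC vs PS they were Mr1, RT1-A1 and RT1-S3, at 1.32, 1.11 and 1.01. RT1 genes are near-identical copies among which reads may be split, so the value of a single one is uncertain.

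**Figure D5:**
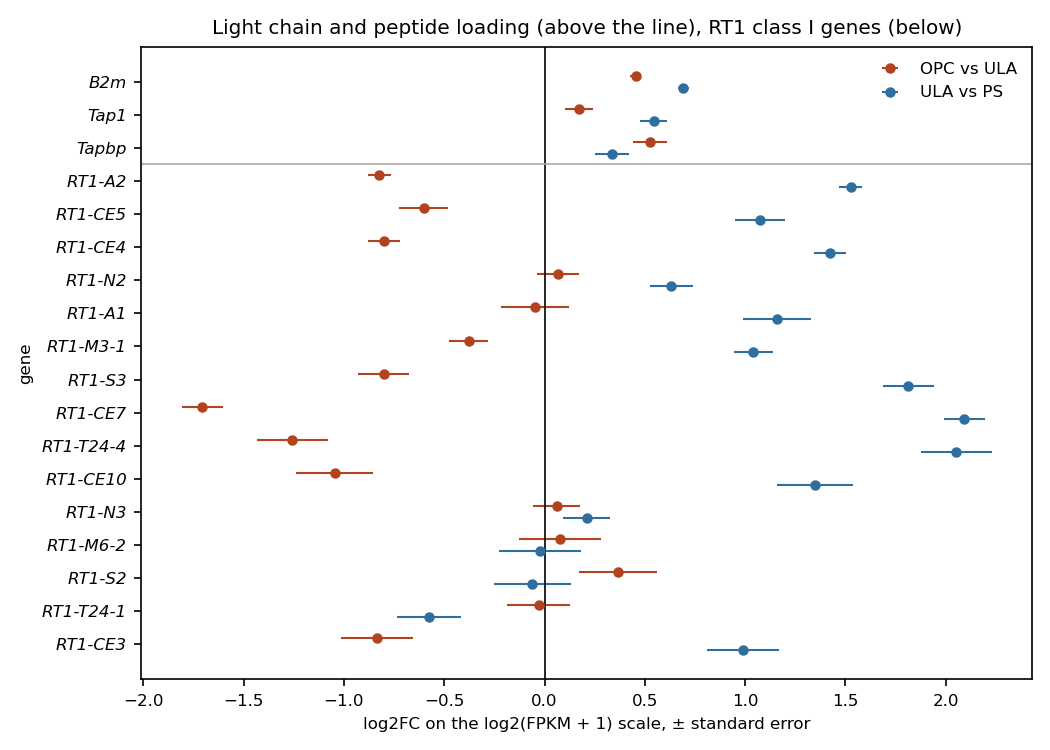
Difference in log2(FPKM + 1) with its standard error for B2m, Tap1 and Tapbp (above the line) and 15 RT1 class I genes (below, by mean level), OPC vs ULA in red and ULA vs PS in blue. B2m is to the right of 0 in both, and most RT1 genes are left of 0 in OPC vs ULA.

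Of the immunoproteasome subunits, Psmb8 and Psmb9 were higher in ULA vs PS, by 0.83 and 0.88, and in OPC vs PS, by 0.80 and 0.75, and were not called in OPC vs ULA. Psmb10 was higher in OPC vs ULA by 0.40 and lower in ULA vs PS, at -0.34. Among other genes of the pathway, 216 were listed, 161 were found and 125 were tested. In OPC vs ULA, 41 were higher and 29 lower (32.8% and 23.2%), near the 32.2% and 21.7% of all genes tested. In ULA vs PS, 86 were higher and 13 lower, where 38.4% and 30.5% of all genes tested were, and in OPC vs PS 90 were higher and 8 lower, where 40.4% and 23.9% were. Their median log2FC was 0.06, 0.41 and 0.53 in that order of comparisons, where that of all genes tested was 0.06, 0.06 and 0.11.

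In the JAK-STAT list, Stat5a was higher in OPC vs PS by 1.99 and in ULA vs PS by 1.31. Socs3, a feedback inhibitor, was higher in ULA vs PS by 1.57, Jak2 by 1.25, and Socs1, a related inhibitor, was higher in OPC vs PS by 1.21. In nucleic acid sensing, the kinase gene Ikbke was higher in OPC vs PS by 1.72 and in ULA vs PS by 1.39, and Dhx58, a regulator of RIG-I, in OPC vs PS by 1.04. The chemokine Cxcl10, a classic interferon target, was 31.7, 33.9 and 22.9 FPKM on OPC, 36.2, 33.3 and 26.0 on ULA and 1.56, 1.95 and 1.37 on PS, and had the largest change of the pathway lists against PS (3.52 in OPC vs PS and 3.64 in ULA vs PS). Cxcl11 was higher by 2.99 and 2.46 in the same comparisons, and Gbp7 by 1.71 in OPC vs PS. Gch1 was higher in ULA vs PS by 2.24 and lower in OPC vs ULA, at -1.71.

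Other genes of these lists fell. Ifi27l2b was lower in OPC vs ULA, at -1.74, and in OPC vs PS, at -1.24. Casp4, an inflammatory caspase, was lower in OPC vs ULA, at -1.05, and in OPC vs PS, at -1.28. Lgals9, a galectin, was lower in ULA vs PS, at -1.81, and in OPC vs PS, at -1.23. In the class II list, the lysosomal protease genes Ctsl and Ctss were higher in ULA vs PS by 1.42 and 1.05, Ctsl was higher in OPC vs PS by 1.29, and Ifi30, a lysosomal reductase, was higher in OPC vs PS by 1.01. Of the interferon genes, Ifna2 was at 0.257 FPKM in OPC library 2 and listed at 0 in all others, and Ifne was between 0.13 and 0.95 FPKM. A low value is not read as absence, since the widely used proteasome activator gene Psme1 was listed at no more than 0.273.

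Members with and without the response element core were set side by side. In OPC vs PS, 15 of 16 tested members with the core were higher and none lower, with a median log2FC of 0.89, and 13 of 16 without it were higher and 1 lower, with a median of 0.69. In ULA vs PS, 14 of 16 with the core were higher and none lower, and 11 of 16 without it were higher and 1 lower. In OPC vs ULA, 9 of 16 with the core were higher and none lower, and 7 of 16 without it were higher and 1 lower, with medians of 0.26 and 0.19. Of all genes tested, 40.4% were higher in OPC vs PS, 38.4% in ULA vs PS and 32.2% in OPC vs ULA. These counts describe members whose promoter was matched, include those that passed the filter through OPC or ULA, and were not tested against each other.

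OPC library 3 was the lowest of the OPC libraries in 31 of 38 members (81.6%), against 39.7% of all genes tested. Of the 17 members higher in OPC vs ULA, 16 had this library above every ULA library. Those 17 were called with this library in the fit, so its place there was in part fixed by the selection. The library also had the highest levels of the OPC group for Thy1 (37.6 FPKM, against 26.7 and 23.7 in OPC libraries 1 and 2), Acta2 (123, against 92.3 and 69.3) and Tagln (119, against 82.4 and 68.2). Thy1 was picked from the cardiosphere and mesenchymal list of 11 markers, whose sum was 5554 to 5735 FPKM over the OPC libraries. The other markers of that list are not given by library. Acta2 and Tagln belong to the smooth muscle list, whose sum was 139.5 to 244.1 FPKM there. Over all genes tested, Pearson's r of OPC library 3 with the PS libraries was 0.914 to 0.917. That of OPC library 1 was 0.901 to 0.903, and that of OPC library 2 was 0.897 to 0.900. The part of these markers, or of this difference over all genes, in the members' levels was not tested. Without OPC library 3, 21 members were called in OPC vs ULA and 2 passed the fold threshold, Irf7 at 1.39 and Mx2 at 1.21.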

How the data were processed

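RNA-Seq of rat CDCs was measured in 9 libraries, 3 per substrate. The authors aligned reads to rn6 and deposited 1 table of 19919 genes by 9 libraries, which holds normalized values read here as FPKM. No source names the unit, and it was inferred. Between libraries, 59.9 to 65.0% of genes under 0.3 FPKM differed by ratios of whole reads (tolerance 0.01, log2), against 0.947 to 1.44% at other offsets. Gene length cancels in these ratios, so they show reads scaled per library and cannot show the scaling by length. The submitters' processing notes name HISAT2 2.1, StringTie 1.3.0 and rn6, and the study's methods name featureCounts and DESeq2. The sources used here give neither the strand setting of the counting nor the absolute depth, and no counting interval was computed. The labels name Trizol for extraction and the methods another kit. No library pair held identical values.

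Genes with at least 1 FPKM in at least 3 libraries (12513) entered a single limma 3.58.1 fit of all groups on log2(FPKM + 1), run in R 4.3.3 with trended empirical Bayes moderation (6 residual degrees of freedom per gene, two-sided tests, Benjamini-Hochberg over all genes tested). Calls used an adjusted p of at most 0.05, and the fold threshold an absolute log2FC of at least 1. The fit was tested on simulated data. Members, lists and tests were chosen with earlier results of these data known. Values in every library are given for members past the fold threshold in any comparison, the 5 most abundant members and a set of factors and coactivators; of other genes, up to 3 per list and direction past the fold threshold, with the class II, immunoproteasome and interferon genes. Promoters were taken from RefSeq (GRCr8), and no coordinate was moved between builds. Alternatives were another pseudocount, no filter, upper-quartile scaling, no trend, a replicate block, fits of 2 groups and each library left out. Some genes are not analysed here.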

Additional observations from a re-analysis of the deposited data

How the results depend on the processing

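No called value changed direction under any alternative. In OPC vs PS, 35 members were called under every library left out. Leaving out each library in turn gave 16 to 21 members called in OPC vs ULA and 31 to 33 in ULA vs PS, and past the fold threshold 1 to 2 in OPC vs ULA, 9 to 11 in ULA vs PS and 13 to 14 in OPC vs PS. With a pseudocount of 0.1, 3 members passed the fold threshold in OPC vs ULA, against 1. The share of all genes called is not given for a library left out, another pseudocount or the replicate block. Counts under these alternatives are read only for how far the calls depend on the fit. Over the 38 members tested and these alternatives, calls were lost 22 times and gained 22 times, in 18 members and in OPC vs ULA or ULA vs PS alone, and the cause was not tested. Ifnar1, Ifngr2 and Ifit3 were lower in OPC vs ULA under upper-quartile scaling (adjusted p = 0.00983, 0.0395 and 0.0462, limma), Samhd1 was lower in ULA vs PS under that scaling and without a trend (adjusted p = 0.0414 and 0.0364), Tap1 was higher in OPC vs ULA without a trend (adjusted p = 0.0408), Stat2 was not called in OPC vs ULA with no filter (adjusted p = 0.055), and Irf7 was higher in ULA vs PS with a pseudocount of 0.1 and in a fit of those groups alone (adjusted p = 0.044 and 0.0129). Over all genes tested, same-numbered libraries did not deviate together (r of -0.0394 to 0.0542). An r over all genes cannot exclude a pairing that shows in few of them. In Tap2, picked after its values were seen, the OPC and ULA libraries had the same order by number, and the PS libraries had another. With the replicate number as a block, 18 members were called in OPC vs ULA (1 past the fold threshold), 34 in ULA vs PS (9) and 35 in OPC vs PS (14). The block ended the OPC vs ULA calls of Stat2 and Irf2 (adjusted p = 0.0557 and 0.0518), and Ifit2 was called in OPC vs ULA (0.0443) and Irf7 and Tap2 in ULA vs PS (0.0344 and 0.0284). The number of libraries, 3 per group, limits the precision, and low members such as Oas1a and Nlrc5 rest on few reads.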
